A study of Mus musculus with 8 samples.

Results

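Krt7, Krt19, Krt23, Epcam, Sox9, Prom1 and Cftr are genes by which bile duct epithelium and the progenitor-like cells of the liver are commonly recognized. They were chosen by name, with earlier results of these data known. All 7 are among the 25010 genes with normalized counts in the RNA-Seq data. The livers came from WT mice and from LXRDKO mice, in which the nuclear receptors LXRα (Nr1h3) and LXRβ (Nr1h2) are deleted in the whole body. All mice were on a C57BL/6 background, ate standard chow and were taken at 8 wk of age after a fast of 4 to 6 h, and RNA was taken from the left lobe of 2 livers per genotype. Each liver was a separate mouse and a separate library, and reads counted on genes came to 55772659 and 72842744 for WT and to 63681131 and 56281367 for LXRDKO. The question asked of these genes is whether their RNA differed between livers with and without LXRs.

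Bile ducts are lined by cholangiocytes, which modify bile by secreting chloride, bicarbonate and water, and which share a fetal origin, the hepatoblast, with hepatocytes. Notch signaling, the Hippo pathway effector YAP and transcription factors such as SOX9 are known for their part in forming and keeping biliary identity. In injured liver, cells that carry biliary markers can spread from the portal tracts in what is called a ductular reaction, and some hepatocytes come to express SOX9. Cholangiocytes are a small minority of liver cells, and in RNA from whole tissue fewer cells of a type and less RNA per cell cannot be told apart.

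Epcam was up-regulated and Krt23 down-regulated in LXRDKO livers by DESeq2, but neither was called by limma, the main test. DESeq2, the test the authors used, was an alternative here, run on reads recovered from the normalized counts. Epcam had 2.33 times and Krt23 0.406 times the mean WT level. Krt7, Krt19, Sox9, Prom1 and Cftr had means from 1.27 to 1.83 times those of WT and were not called by DESeq2 or by limma. No member passed an adjusted P value of 0.05 in limma, which was fitted to log2(normalized count + 1) of the 15578 genes whose mean was 10 normalized counts or more. With 2 livers against 2, the smallest two-sided P value that an exact permutation test of 1 gene can give is 0.333, so each P value rests on a spread that limma or DESeq2 pools across genes.

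Epcam encodes an adhesion molecule of epithelial cells that is present on cholangiocytes and on hepatic progenitors and largely absent from mature hepatocytes. Its normalized counts were 74.1 and 115 in WT livers and 216 and 224 in LXRDKO livers. The LXRDKO livers were close to each other and above either WT liver, while WT replicate 1 was the lowest of the 4. Limma gave Epcam a log2 fold change of 1.25 (95% interval 0.58 to 1.91, adjusted P = 0.155), with an adjusted P value of 0.0112 from DESeq2. In DESeq2 fits without 1 liver, an alternative chosen after seeing the data, Epcam stayed called without WT replicate 2 (adjusted P = 0.0459). It was not called without WT replicate 1 (adjusted P = 0.435), without LXRDKO replicate 1 (adjusted P = 0.395) or without LXRDKO replicate 2 (adjusted P = 0.505). In these fits the lone liver of a genotype is assumed to vary like the others.

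Krt23 encodes a type I keratin that is induced in injured liver. Its normalized counts were 281 and 362 in WT livers and 148 and 113 in LXRDKO livers. Either LXRDKO liver was below the lower WT liver, and Krt23 was the member with the opposite direction to the other 6. For Krt23, limma gave a log2 fold change of −1.30 (95% interval −1.88 to −0.72, adjusted P = 0.127), with an adjusted P value of 0.000651 from DESeq2. DESeq2 still called Krt23 without WT replicate 1 (adjusted P = 0.0180) and without LXRDKO replicate 1 (adjusted P = 0.0221), but not without WT replicate 2 (adjusted P = 0.315) or without LXRDKO replicate 2 (adjusted P = 0.202).

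Krt7 and Krt19 encode a type II and a type I keratin that are found in cholangiocytes and not in healthy adult hepatocytes. Krt7 had 53.6 and 61.1 normalized counts in WT livers and 112 and 95.4 in LXRDKO livers. Its groups were well apart, with replicates within 1.17 times of each other in either genotype. Krt7 had a log2 fold change of 0.84 (95% interval 0.21 to 1.47, adjusted P = 0.266, limma). Krt19 had 69.6 and 56.0 normalized counts in WT livers and 83.5 and 147 in LXRDKO livers. The groups did not overlap, but LXRDKO replicate 2 had 1.76 times the level of LXRDKO replicate 1. The log2 fold change of Krt19 was 0.82 (95% interval −0.04 to 1.67, adjusted P = 0.394, limma), and without LXRDKO replicate 2 it was 0.41.

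Sox9 encodes a transcription factor of bile duct development that is also expressed by some periportal hepatocytes. It had 447 and 443 normalized counts in WT livers and 483 and 643 in LXRDKO livers. The WT livers were nearly equal, LXRDKO replicate 1 was slightly above them and LXRDKO replicate 2 was the highest. Sox9 had a log2 fold change of 0.32 (95% interval −0.11 to 0.76, adjusted P = 0.507, limma) and 0.12 without LXRDKO replicate 2.

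Prom1 encodes CD133, a membrane protein of progenitor and biliary cells. It had 49.0 and 84.0 normalized counts in WT livers and 85.4 and 101 in LXRDKO livers. WT replicate 2 was close to the lower LXRDKO liver, and WT replicate 1 was low. The log2 fold change of Prom1 was 0.52 (95% interval −0.31 to 1.36, adjusted P = 0.585, limma), and without WT replicate 1 it was 0.14.

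Cftr encodes the chloride channel of the apical cholangiocyte membrane, which opens in response to secretin through cyclic AMP. It had the lowest counts of the members, with 6.84 and 17.0 normalized counts in WT livers and 18.98 and 17.2 in LXRDKO livers. These rest on 6 and 20 reads in WT and 20 and 16 in LXRDKO. Only WT replicate 1 stood apart, and its exact Poisson 95% interval of 2.20 to 13.1 reads overlaps that of WT replicate 2, 12.2 to 30.9 reads. Such intervals cover counting error only. The log2 fold change of Cftr was 0.68 (95% interval −0.65 to 2.02, adjusted P = 0.661, limma) and 0.08 without WT replicate 1.

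**Figure D1:**
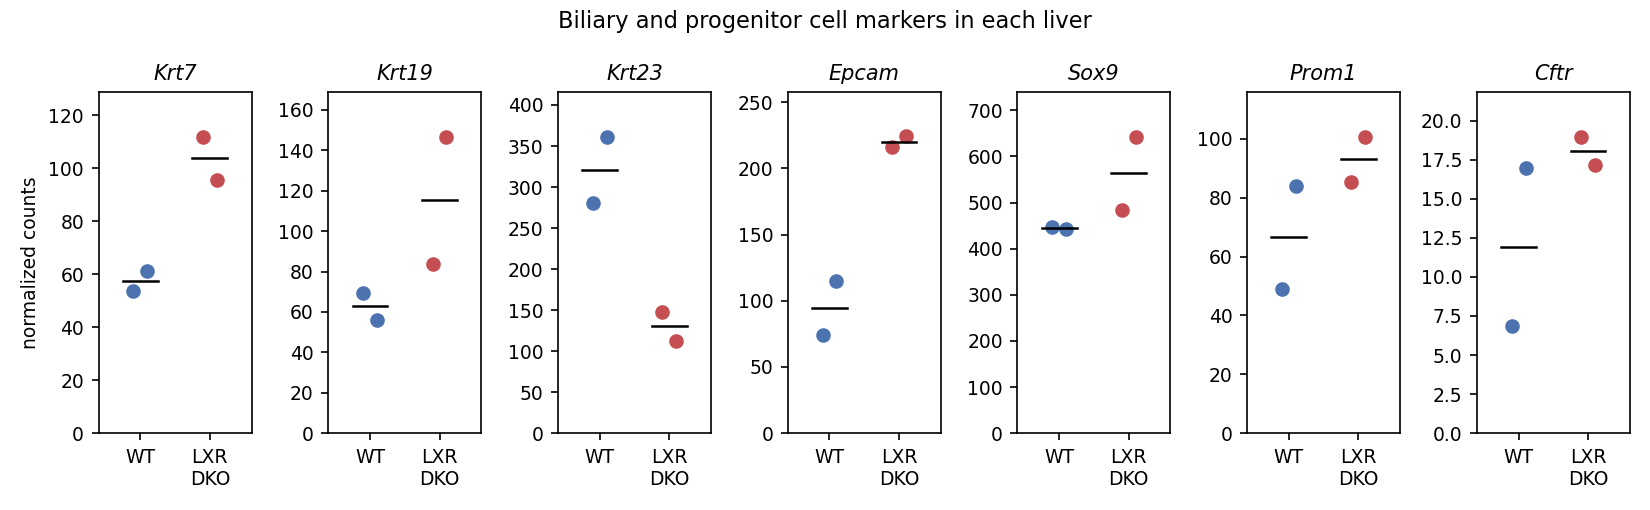
Normalized counts of the 7 member genes in each liver, with WT in blue and LXRDKO in red, each dot a liver and each line the mean of 2 livers, on axes that start at 0. Krt23 is lower in both LXRDKO livers, at 148 and 113, and in the other 6 genes the lower LXRDKO liver is above the higher WT liver, by little in Prom1 and Cftr.

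Taking the 7 members together, limma called 0 up-regulated, against 0.135% of all genes tested, and 0 down-regulated, against 0.186%. The quasi-likelihood test of edgeR also called 0, against 49 of the 15578 genes tested in both directions together. DESeq2 called 1 of 7 up-regulated, against 1.56% of the 15797 genes with an adjusted P value, and 1 of 7 down-regulated, against 2.03%. At an unadjusted limma P value under 0.05, 2 members were higher (Krt7 and Epcam), against 5.77% of genes tested, and 1 was lower (Krt23), against 7.5%. The LXRDKO livers were higher than the WT livers without overlap in 6 of 7 members, against 21.7% of genes tested, and lower without overlap in 1, against 23.0%. The median log2 fold change of the members was 0.68, and that of all genes tested was −0.0046. Leaving out WT replicate 1 gave a median of 0.33, leaving out WT replicate 2 gave 0.91, leaving out LXRDKO replicate 1 gave 0.64 and leaving out LXRDKO replicate 2 gave 0.41. The members are markers of overlapping cell types in the same 4 livers and do not count as replicates of each other.

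Levels of different genes were compared as normalized counts per kb of annotated exon. On this scale Krt23 was the most abundant member in WT livers, with a mean of 205, followed by Sox9 with 108, Epcam with 43.0 and Krt19 with 33.9. The WT livers of Epcam and Krt19 overlapped on this scale, as did those of Prom1 and Krt7, which had means of 9.27 and 8.14 normalized counts per kb. In LXRDKO livers the order was Sox9 with 136 normalized counts per kb, Epcam with 100.3, Krt23 with 83.3 and Krt19 with 62.1, the last pair overlapping between livers. Krt7 and Prom1 followed with 14.7 and 13.0 and also overlapped, and Cftr was last in both genotypes, with 1.53 and 2.33 normalized counts per kb. Krt23 thus moved from rank 1 to rank 3, and Epcam from rank 3 to rank 2. Exon length is that of all annotated transcripts of a gene, which for Krt7 adds up to 7049 bases.

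The tissue label was checked against markers of hepatocytes. The 9 hepatocyte markers analysed summed to 7238987 and 8084706 normalized counts in WT livers and 7585805 and 6909726 in LXRDKO livers, and Alb, which encodes serum albumin, was the most abundant of them per kb. The 7 members summed to 981 and 1137 normalized counts in WT livers and to 1148 and 1340 in LXRDKO livers. Transcripts of the members were thus at a low level beside those of hepatocytes. In WT livers the sums rest largely on Sox9 (447 and 443) and Krt23 (281 and 362). Sox9 is also expressed by some periportal hepatocytes, so the sums do not measure biliary RNA alone. Nr1h3 was down-regulated from a mean of 5554 to 1769 normalized counts (log2 fold change −1.65, adjusted P = 0.0147, limma) and Nr1h2 from 3049 to 964 (log2 fold change −1.66, adjusted P = 0.0147, limma).

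Other cholangiocyte genes, a list also chosen with earlier results of these data known, leaned the same way as most members. Of 23 such genes with values, 21 were tested and 2 had a mean under 10. Among the 21, 19 had a log2 fold change above 0, against 49.1% of all genes tested. The median was 0.70. Limma called none of them. At an unadjusted limma P value under 0.05, 8 were higher, against 5.77% of genes tested, and 1 was lower, against 7.5%. Without overlap, 15 were higher in LXRDKO livers, against 21.7% of genes tested. The same shares apply to the lists that follow. DESeq2 called none up-regulated and 1 down-regulated. This was Slc10a2, the apical sodium-dependent bile acid transporter by which cholangiocytes take bile acids back from bile. It had 1903 and 2127 normalized counts in WT livers and 1148 and 1294 in LXRDKO livers, and its log2 fold change was −0.72 (adjusted P = 0.104 from limma and 0.000651 from DESeq2). DESeq2 did not call Slc10a2 without WT replicate 2 (adjusted P = 0.167) or without LXRDKO replicate 1 (adjusted P = 0.222). The genotypes did not overlap, as for Krt23. The most abundant gene of the list per kb was Cldn3, which encodes a tight junction claudin and had 4929 and 4868 normalized counts in WT livers and 4998 and 4318 in LXRDKO livers, with overlap.

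WT replicate 1 was the lowest of the 4 livers in 18 of these 21 cholangiocyte genes and in 4 of the 7 members, compared with 24.9% of all genes tested. The cholangiocyte genes differed between the WT livers by a median of 0.67 on the log2 scale, close to their median log2 fold change between genotypes, and between the LXRDKO livers by 0.09. Without WT replicate 1 the median log2 fold change of the list was 0.39, and without WT replicate 2 it was 1.03. Spp1, which encodes the secreted phosphoprotein osteopontin, is an example chosen after its values were seen. It had 1433 and 2907 normalized counts in WT livers and 3658 and 4300 in LXRDKO livers. The genotypes did not overlap, but the WT livers differed from each other by more than WT replicate 2 differed from either LXRDKO liver as a ratio. Spp1 had a log2 fold change of 0.96 (adjusted P = 0.307, limma), and limma called it without WT replicate 2 (log2 fold change 1.47, adjusted P = 0.0124). The part of this liver in the results for the members was not tested beyond leaving it out.

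**Figure D2:**
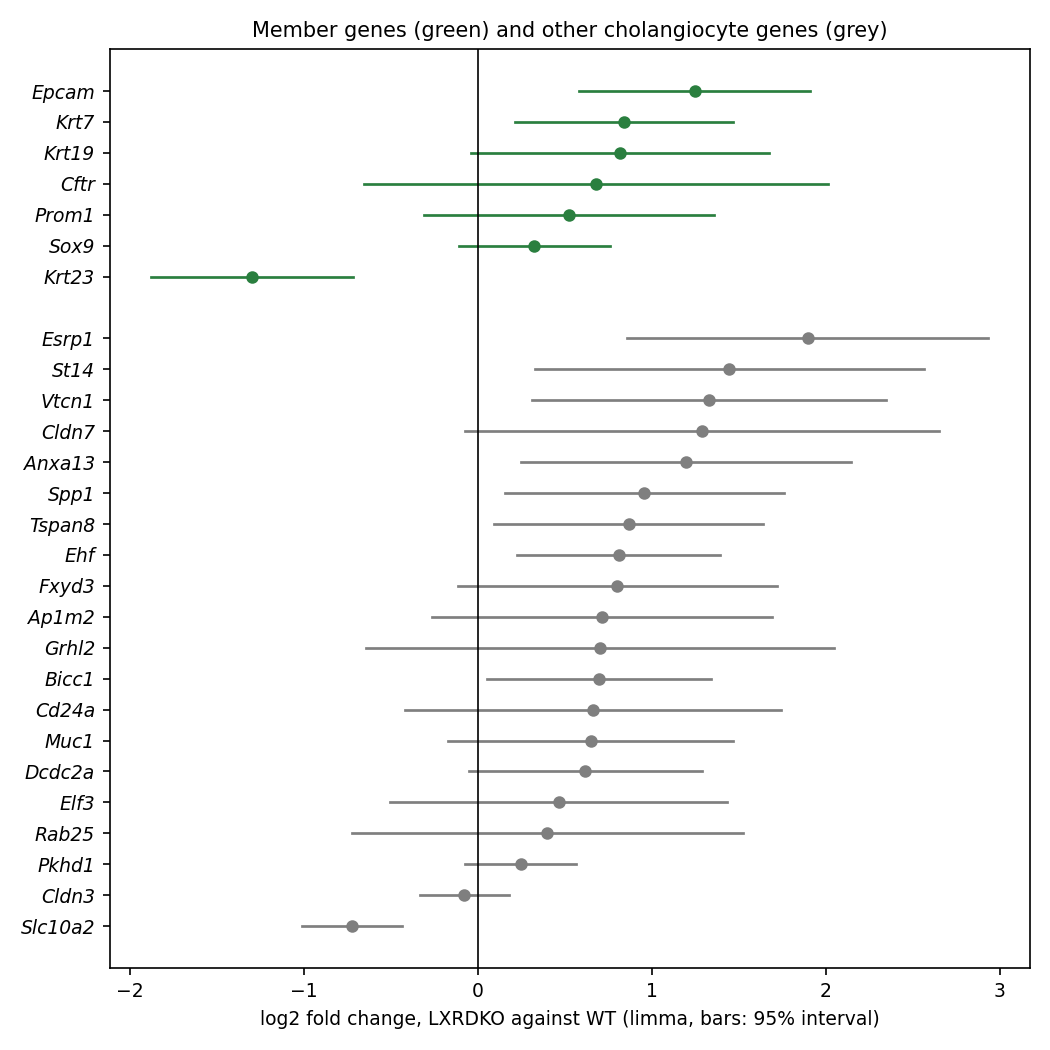
Log2 fold change, LXRDKO against WT, of the 7 members (green) and 20 of the 21 tested genes of the list of other cholangiocyte genes (grey), from limma with bars for the 95% interval (2 livers per genotype). Most points lie to the right of 0, while Krt23 at −1.30 and Slc10a2 at −0.72 lie to the left with intervals that do not reach 0.

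The list of EpCAM partners and proteases holds claudin-7 and the tetraspanin Tspan8, which associate with EpCAM at the membrane, and the membrane serine proteases with their inhibitors. Of its 11 tested genes, 7 had a log2 fold change above 0, and the median was 0.38. WT replicate 1 was the lowest liver in 7 of the 11, or 63.6% against 24.9% of all genes tested, and the median difference between the 2 WT livers was 0.41, so the median between genotypes is no larger than that between WT livers. Cldn7, Tspan8 and St14 are also on the cholangiocyte list above, so the 2 lists are not independent. The cholangiocyte list likewise shares Slc10a2 and Sctr with the secretion list and Cd24a with the progenitor list, which itself shares Cd44 with the present list. DESeq2 called 1, Spint1, up-regulated and none down-regulated, while limma called none, with 5 genes higher and 1 lower at an unadjusted P value under 0.05. Spint1 encodes a Kunitz-type inhibitor of matriptase and related proteases. It had 36.5 and 55.2 normalized counts in WT livers and 140 and 108 in LXRDKO livers, without overlap. Spint1 had a log2 fold change of 1.44 (adjusted P = 0.161 from limma and 0.0249 from DESeq2), and DESeq2 called it in none of the 4 fits that leave out 1 liver, with adjusted P values from 0.151 to 0.892. The most abundant gene of the list per kb was Spint2, with 4683 and 4211 normalized counts in WT livers and 5219 and 6360 in LXRDKO livers. St14, which encodes matriptase and was chosen after its values were seen, had 35.4 and 84.0 normalized counts in WT livers and 128 and 177 in LXRDKO livers, and its log2 fold change was 1.45 (adjusted P = 0.284 from limma and 0.0972 from DESeq2).

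Genes of ductal secretion and transport, the functional neighbors of Cftr, went in both directions. Of 17 genes with values, 3 had a mean under 10. Among the 14 tested, 9 had a log2 fold change above 0, with a median of 0.16. Limma called none, with 4 higher and 2 lower at an unadjusted P value under 0.05, and DESeq2 called 1 up-regulated and 2 down-regulated. Ezr, whose product ezrin ties apical membrane proteins to actin, had 344 and 351 normalized counts in WT livers and 547 and 556 in LXRDKO livers (log2 fold change 0.66, adjusted P = 0.139 from limma and 0.0246 from DESeq2). With any single liver left out, DESeq2 did not call Ezr, with adjusted P values from 0.442 to 0.722. Aqp1, a water channel of cholangiocytes and endothelium, had 3779 and 3479 normalized counts in WT livers and 2687 and 1882 in LXRDKO livers (log2 fold change −0.69, adjusted P = 0.218 from limma and 0.0293 from DESeq2). DESeq2 called Aqp1 without LXRDKO replicate 1 (adjusted P = 0.00247) but not without WT replicate 1 (adjusted P = 0.260), without WT replicate 2 (adjusted P = 0.117) or without LXRDKO replicate 2 (adjusted P = 0.732). The other gene called was Slc10a2, described above. Slc9a3r1, a scaffold to which CFTR binds, was the most abundant of the list per kb and overlapped between genotypes, with 16018 and 12523 normalized counts in WT livers and 11680 and 13133 in LXRDKO livers. Gpbar1, a bile acid receptor gene, had at most 2 reads in any liver.

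Among 18 Hippo and YAP pathway genes, 10 had a log2 fold change above 0 and the median was 0.02. Ccn2, a target gene of YAP and TEAD that encodes a matricellular protein, was called by DESeq2. It had 246 and 368 normalized counts in WT livers and 1200 and 920 in LXRDKO livers. Either LXRDKO liver was far above the higher WT liver. The log2 fold change of Ccn2 was 1.80 (adjusted P = 0.0706 from limma and 8.43e-10 from DESeq2), and limma called it without WT replicate 1 (adjusted P = 0.0217) and without WT replicate 2 (adjusted P = 0.0124), but not without LXRDKO replicate 1 or without LXRDKO replicate 2. Limma called no gene of the list with all livers, and 2 had an unadjusted P value under 0.05, both higher in LXRDKO. Yap1 itself, the most abundant gene of the list per kb, had 5346 and 5201 normalized counts in WT livers and 4491 and 4930 in LXRDKO livers, a log2 fold change of −0.16 in limma (adjusted P = 0.525).

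No gene of the Notch pathway was called by limma or DESeq2. Of 18 tested, 8 had a log2 fold change above 0, the median was −0.06, and 1 was higher and 1 lower at an unadjusted P value under 0.05. Rfng, a glycosyltransferase gene that modifies Notch receptors, was the most abundant per kb, with overlap between genotypes. Biliary fate transcription factors also gave no call in limma or DESeq2, with 10 tested, a median of 0.10 and 1 gene at an unadjusted P value under 0.05. Prox1 was the most abundant of them per kb, with 14487 and 11316 normalized counts in WT livers and 14542 and 15928 in LXRDKO livers. Of 15 progenitor and fetal liver genes with values, 4 had a mean under 10. Of the 11 tested, 3 had a log2 fold change above 0, the median was −0.04, and neither limma nor DESeq2 called any, with 2 lower at an unadjusted P value under 0.05. Afp, the fetal albumin-like protein gene, chosen after its values were seen, had 51.3 and 105 normalized counts in WT livers and 50.3 and 105 in LXRDKO livers. Tnfrsf12a, the most abundant of this list per kb, had 313 and 453 in WT livers and 375 and 374 in LXRDKO livers, and Hmga2 had at most 3 reads in any liver. Among the 11 genes tested, the limma log2 fold change of largest size was that of Igf2bp3 (−2.46, adjusted P = 0.405 from limma and 0.0647 from DESeq2). Igf2bp3 had 11.4 and 99.3 normalized counts in WT livers and 2.85 and 9.65 in LXRDKO livers. Without WT replicate 1 its log2 fold change from DESeq2 was −4.02. Kit, chosen after its values were seen, had 322 and 239 in WT livers and 172 and 154 in LXRDKO livers (log2 fold change −0.76, unadjusted P = 0.0135, adjusted P = 0.244, limma). Cd44 was the other gene of this list lower at an unadjusted P value under 0.05. Besides Hmga2, the genes too low to test were Dlk1 (0 and 0.849 normalized counts in WT livers, 6.64 and 10.7 in LXRDKO livers), Igf2bp1 (0 and 0.849, then 7.59 and 2.14) and Igf2 (0 and 4.24, then 2.85 and 8.58, with overlap), and at these counts no difference is read from them. Foxl1 and Lin28b were not analysed here.

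**Figure D3:**
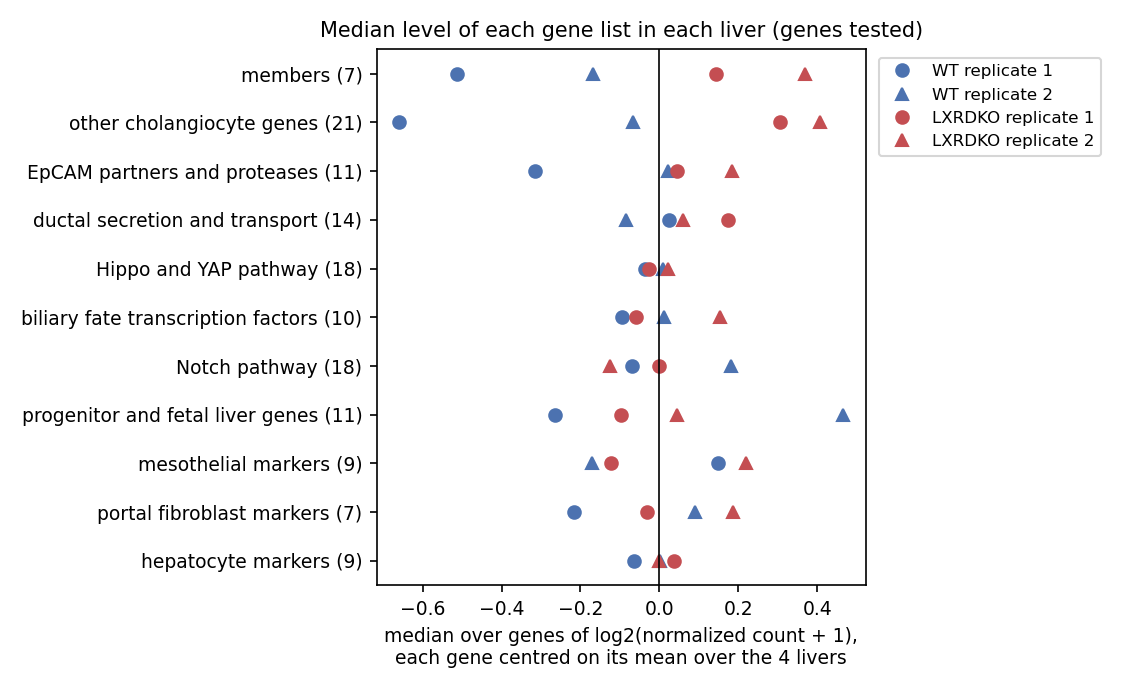
Median over the tested genes of each list (their number in parentheses) of log2(normalized count + 1), each gene centred on its mean over the 4 livers, with 1 symbol per liver. The LXRDKO livers are to the right of the WT livers for the members and the other cholangiocyte genes, where WT replicate 1 is lowest at −0.51 and −0.66. The same holds for the EpCAM partners and proteases and for ductal secretion and transport, by less. In the former WT replicate 2 is at 0.023 and LXRDKO replicate 1 at 0.045. In the latter WT replicate 1 is at 0.024 and LXRDKO replicate 2 at 0.061. The genotypes mix for the other lists drawn.

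Of the keratin genes with values, 12 in all, 7 were tested. Keratins 8 and 18 are the pair found in hepatocytes as well as cholangiocytes, and Krt18 was the most abundant keratin gene per kb. Krt8 had 4507 and 5101 normalized counts in WT livers and 4566 and 5806 in LXRDKO livers, and Krt18 had 7265 and 8720 in WT livers and 7223 and 7629 in LXRDKO livers. Both overlapped between genotypes, with log2 fold changes of 0.10 and −0.10 (adjusted P = 0.823 and 0.781, limma). Krt80 encodes a type II keratin of epithelia. It had 20.5 and 22.9 normalized counts in WT livers and 96.8 and 71.8 in LXRDKO livers, well apart. Krt80 had a log2 fold change of 1.90 (adjusted P = 0.111 from limma and 0.00535 from DESeq2), and DESeq2 called it in none of the 4 fits without 1 liver, with adjusted P values from 0.210 to 0.725. Krt10 had from 49.2 to 70.8 normalized counts per liver and overlapped between genotypes. Limma called no keratin, and 2 were higher and 1 lower at an unadjusted P value under 0.05. Krt1 and Krt28 had at most 2 reads in any liver.

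Several members are expressed outside bile ducts, so markers of other cells that a piece of liver can hold were summed. Mesothelial cells of the liver surface also express Krt7 and Krt19. The 9 mesothelial markers, of which Upk3b was the most abundant per kb, summed to 744 and 587 normalized counts in WT livers and 607 and 719 in LXRDKO livers, so the groups overlapped. None was called by limma or DESeq2 or had an unadjusted limma P value under 0.05. The 7 portal fibroblast markers, led by Gas6 per kb, summed to 2619 and 3729 normalized counts in WT livers and 3227 and 4143 in LXRDKO livers. The 4 vascular smooth muscle markers, led by Tagln, summed to 486 and 658 in WT livers and 501 and 711 in LXRDKO livers, and no gene of these lists was called by limma or DESeq2 or had an unadjusted limma P value under 0.05. WT replicate 1 had the lowest sum of portal fibroblast and of smooth muscle markers, as it did for the members, but the highest sum of mesothelial markers. It was the lowest liver in 4 of 7 portal fibroblast markers and in 1 of 9 mesothelial markers, and 6 of those 7 and 6 of those 9 had a log2 fold change above 0. Of the pancreatic acinar markers, Pnlip was at 0 in 3 livers, with 2 reads in LXRDKO replicate 2, and the most abundant per kb was Cela1, an elastase gene expressed outside the pancreas as well, with 1017 and 353 normalized counts in WT livers and 1409.5 and 1002 in LXRDKO livers. The intestinal marker Muc2 had from 6.64 to 11.8 normalized counts per liver. Other acinar and intestinal markers on the lists were not analysed here.

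Markers of other liver cell types were summed in the same way. The 6 periportal hepatocyte markers, led by Pck1 per kb, summed to 401713 and 393312 normalized counts in WT livers and 494390 and 443069 in LXRDKO livers. This sum follows its most abundant gene, since 4 of the 6 overlapped between genotypes, 2 had a log2 fold change below 0 and the median was 0.03. DESeq2 called 1 of them, Sds, up-regulated (log2 fold change 1.02, adjusted P = 0.00118, DESeq2), but not without LXRDKO replicate 1 (adjusted P = 0.0702, DESeq2). Of the hepatocyte markers it called Hnf4a up-regulated (log2 fold change 0.61, adjusted P = 0.0115, DESeq2), but not without WT replicate 2 (adjusted P = 0.230, DESeq2) or without LXRDKO replicate 1 (adjusted P = 0.580, DESeq2). All 5 stellate cell markers had a log2 fold change above 0, with sums of 11229 and 10423 in WT livers and 14161 and 14359 in LXRDKO livers. Ecm1 was the most abundant of these per kb, and DESeq2 called Reln up-regulated (adjusted P = 0.0320, DESeq2) but in none of the 4 fits without 1 liver. The 5 sinusoidal endothelial markers, led by Clec4g, summed to 9345 and 8210 in WT livers and 6890 and 5226 in LXRDKO livers, and Kdr was called down-regulated by limma and DESeq2. DESeq2 called it with all livers (adjusted P = 4.0e-09, DESeq2) and in all 4 fits without 1 liver, with adjusted P values of 0.00137 or lower. Limma called it with all livers (adjusted P = 0.0498, limma), though not without LXRDKO replicate 1 (adjusted P = 0.151, limma) or without LXRDKO replicate 2 (adjusted P = 0.202, limma). The 5 Kupffer cell markers, led by Clec4f, summed to 7392 and 8279 normalized counts in WT livers and 832 and 473 in LXRDKO livers, with 3 called by limma (Clec4f, Cd5l and Marco) and all 5 by DESeq2, which added Vsig4 and Timd4. Clec4f and Cd5l stayed called by limma and DESeq2 whichever liver was left out. Limma lost Marco without LXRDKO replicate 1 (adjusted P = 0.199, limma) and without LXRDKO replicate 2 (adjusted P = 0.216, limma). DESeq2 lost Vsig4 without WT replicate 1 (adjusted P = 0.173, DESeq2), and Timd4 without WT replicate 1 (adjusted P = 0.566, DESeq2) and without WT replicate 2 (adjusted P = 0.613, DESeq2). The 5 lymphocyte markers, led by Ptprc, summed to 461 and 769 in WT livers and 959 and 545 in LXRDKO livers, with overlap. This sum follows Ptprc, the 1 marker with a log2 fold change above 0. The other 4 had a log2 fold change below 0 and were lower in LXRDKO livers without overlap. Limma and DESeq2 called none of the 5, and 3 were lower at an unadjusted limma P value under 0.05. The part of these cell types in the values of the members was not tested.

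The members lie on 5 chromosomes of GRCm38, which is the same assembly as mm10. Epcam is on chromosome 17 from 87635979 to 87651129, Krt7 on chromosome 15 from 101411043 to 101430313, Prom1 on chromosome 5 from 43993620 to 44102032 and Cftr on chromosome 6 from 18170687 to 18322768. Chromosome 11 carries Krt23 from 99477974 to 99493137, Krt19 from 100140810 to 100148665 and Sox9 from 112782224 to 112787760. Krt23 and Krt19 flank a stretch of 647672 bases of the type I keratin cluster. Their values went in opposite directions although both lie on the minus strand of this cluster. Krt7, Prom1 and Cftr each overlap at least 1 annotated transcript on the opposite strand. Reads of such transcripts cannot be told apart from those of the gene where counting ignored the strand. The paper names a stranded library kit, but whether counting used the strand is not stated. On the same strand, Prom1 overlaps Gm42716 and Cftr overlaps Gm15595, and there the strand cannot separate the reads.

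For each member the 3 genes with the most similar values were found among all genes tested, by the Euclidean distance between centred log2 values over the 4 livers. For Epcam these were Ggt5 (distance 0.117), Mmp12 and Tmod1, and for Krt23 they were Ms4a1 (distance 0.130), Il1a and Sult1c2. Acmsd, Plekhh1 and Evpl were nearest to Krt7, with Acmsd at a distance of 0.037, and Gm38387, Sez6l2 and Mvk were nearest to Krt19, with Gm38387 at 0.093. Sox9 was nearest to Bbc3 (distance 0.031), Src and H3f3b, Prom1 to Mir365-2 (distance 0.080), Plcd3 and Fxyd6, and Cftr to Clec7a (distance 0.087), Cish and 3110039I08Rik. None of these 21 genes is another member, and 1, the B cell gene Ms4a1, is on a marker list. Over 4 livers many genes share a pattern by chance, and the distances describe likeness only.

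Promoter sequences from RefSeq on GRCm38.p6, the 250 bases before the transcript start, were available for 5 of the 7 members, and those of Krt19 and Sox9 were not analysed here. The 2 members that DESeq2 called are shown because they moved in opposite directions. Epcam is read on the plus strand, chr17:87635729-87635978, and Krt23 on the minus strand, chr11:99493121-99493370, both 5′ to 3′. Capitals mark ATAAAA, a motif chosen after the sequences were seen.
Epcam: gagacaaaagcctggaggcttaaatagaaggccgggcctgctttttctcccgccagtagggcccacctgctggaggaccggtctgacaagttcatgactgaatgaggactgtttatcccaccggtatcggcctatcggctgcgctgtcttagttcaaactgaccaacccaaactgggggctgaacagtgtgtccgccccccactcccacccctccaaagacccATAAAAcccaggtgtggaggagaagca
Krt23: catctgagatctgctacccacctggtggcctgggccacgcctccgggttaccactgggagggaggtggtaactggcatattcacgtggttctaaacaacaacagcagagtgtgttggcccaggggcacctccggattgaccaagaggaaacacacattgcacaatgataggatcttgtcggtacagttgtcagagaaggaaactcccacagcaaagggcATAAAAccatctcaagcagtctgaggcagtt
The motif starts 27 bases before the start in Epcam and 31 bases before the RefSeq start of Krt23, on the transcribed orientation in both, and 17.0% of the 32851 promoters of this length hold it on either strand. Krt7 holds it 7 bases before its RefSeq start. The RefSeq starts of Krt23 and Krt7 lie inside the genes as GENCODE M21 places them, so these distances depend on the annotation. Of the motifs named for the search, these were read on both strands and are absent from the Epcam, Krt23, Krt7 and Cftr windows: CCAAT (33.9% of all promoters), TGGGAA of RBPJ (21.6%), GGAATG of TEAD (12.6%), TATAAA (12.4%, which shares 5 letters with ATAAAA) and AGGTCA repeats with 4 bases between them, the DR4 element to which LXR and RXR bind (0.0152%). A Prom1 window at chr5:44101737-44101986 holds CCAAT 35 bases before a RefSeq start that also lies inside the GENCODE gene, and TGGGAA on the opposite strand. Another Prom1 window, chr5:44094769-44095018, holds none of these motifs and no ATAAAA. It had a GC share of 50.8% and 3 CpG dinucleotides, against 59.2% and 9 in the Prom1 window with CCAAT. The GC share was 52.8% in Krt23, 56.4% in Epcam, 66.0% in Krt7 and 76.4% in Cftr, beside a median of 52.4% over all promoters. Cftr had 30 CpG dinucleotides in the window, Krt7 16, Epcam 8 and Krt23 5, and the median was 6. A match is a description of letters and not a binding site, and a missing match does not show that a gene lacks a site. The DR4 search asked for exact repeats, which only 5 of the 32851 promoters hold. The paper points out that many important LXR sites depart from a perfect DR4.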

How the data were processed

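The authors sequenced polyadenylated RNA of 4 livers, aligned reads to mm10 with STAR 2.6.0c and normalized counts with DESeq2. The deposited values are a signal, normalized counts per gene, that is, reads over a library's size factor (0.877 and 1.18 for WT, 1.05 and 0.933 for LXRDKO). The tool that counted reads is not stated. All values (100%) were whole multiples of 1 read within a tolerance of 0.1 reads, so reads were recovered. The main test was limma 3.58.1 (R 4.3.3) with a variance trend on log2(normalized count + 1), for genes averaging 10 normalized counts or more, with Benjamini-Hochberg adjustment over all genes tested and a threshold of 0.05. Recovered reads were also tested with DESeq2 1.42.0, which made 567 calls, and edgeR 4.0.16. Limma, DESeq2 and edgeR were also tested on simulated data. Gene positions and exon lengths came from GENCODE M21.

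The members and lists were chosen with earlier results of these data known. Genes named were the members, Nr1h3, Nr1h2, keratins with a mean of at least 10, called, most abundant and undetected genes of each list, and the 3 nearest genes of each member. Others were chosen after their values were seen. Chromatin accessibility was not analysed here.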

Additional observations from a re-analysis of the deposited data

How the results depend on the processing

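Each member kept its direction in every alternative that gave it a value, with log2 fold changes from 0.94 to 1.57 for Epcam, −1.52 to −1.10 for Krt23, 0.73 to 0.97 for Krt7, 0.41 to 1.23 for Krt19, 0.12 to 0.53 for Sox9, 0.14 to 0.92 for Prom1 and 0.08 to 1.40 for Cftr. Cftr gave no value at a mean of at least 50 normalized counts. Limma and edgeR called no member in any alternative. DESeq2 called 1 member higher and 1 lower, and from 0 to 1 in each direction with any single liver left out, a setting chosen after seeing the data. Of the 92 genes tested on the 7 lists of biliary genes and pathways, which leave out the members, the keratins and the markers of other cell types, limma called 0 (18 higher and 5 lower at an unadjusted P value under 0.05), DESeq2 called 3 higher and 2 lower, and a threshold of 0.10 gave 1 higher. Without each liver in turn, limma called from 0 to 2 higher and 0 lower. In the same way DESeq2, a setting also chosen after seeing the data, called from 1 to 3 higher and from 0 to 3 lower, and Ccn2 was called each time.

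Over all genes, limma called 50. The count was 25 at a mean of at least 50 normalized counts, 1 without the trend, 567 with DESeq2, 138 at a threshold of 0.10 and from 2 to 265 without each liver in turn, where the lone liver is assumed to vary like the others. The replicate number does not pair the mice, and the correlation of replicate deviations between genotypes was 0.0031. With the replicate block the count was 90, and 0 members were called. The cause of these differences was not tested. Cftr rests on 6 to 20 reads per liver.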
